A study of Mus musculus with 6 samples.

Results

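The genes described here copy DNA and its chromatin in S phase, the part of the cell cycle in which the genome is duplicated. They were 43 genes taken by symbol from a table of 21700 genes, and all 43 were found there. By role they were 10 genes of origin licensing and helicase loading, 7 of helicase activation and the fork, 6 of the polymerases and primase, and 8 of the clamp, its loader, single-strand binding and ligation. A further 4 supply nucleotides, 3 control entry into S phase, and 5 serve chromatin assembly and histone supply. The table held RNA levels in biliary epithelial cells, the epithelial cells of the bile ducts, sorted by flow cytometry from female C57BL/6 livers of wild-type genotype. Of 6 libraries, 3 were non-pregnant and 3 were pregnant at dpc8 (day 8 post coitum). No transgene, agent or age is given in the labels, and the antibodies that set the sorting gate are not given either. Separate animals per library are not stated in the labels, so the p-values below reflect only how far these samples spread, possibly for technical reasons.

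Cells that leave quiescence first mark replication origins. The origin recognition complex, with Cdc6 and Cdt1, loads the ring of Mcm2 to Mcm7 onto DNA, and Cdc45 and the GINS complex then turn that ring into the active helicase. DNA polymerases, held by the sliding clamp Pcna, copy the unwound strands, and Uhrf1, Dnmt1 and the CAF-1 complex restore DNA methylation and nucleosomes behind the fork. Many of these genes are known targets of the E2F transcription factors. In the adult liver at rest, biliary epithelial cells are known to divide little, and they can enter the cell cycle when ducts grow or are injured.

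Levels are FPKM, that is fragments counted per kilobase of exon and per unit of library depth. Depth, recovered from these values as whole fragments, was 25047888 to 35083751 fragments per library, and 15928 to 16245 genes were above 0. Biliary markers were high. Krt19, a duct keratin, was between 220 and 386 FPKM and Epcam, an epithelial adhesion protein, between 182 and 195 FPKM in all 6 libraries. The non-pregnant libraries differed more from each other (Spearman correlations over genes of 0.956 to 0.979) than the pregnant libraries did (0.991 to 0.995). Non-pregnant library 2 stood apart by liver endothelial markers, whose 7 genes summed to 159 FPKM there and to between 11 and 23.2 in the other 5 libraries. Non-pregnant library 3 stood apart on the first principal component, which held 50.3% of the variance. In bulk samples a change in how many cells of a type are present and a change in RNA per cell cannot be told apart.

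None of the 43 genes passed the test between pregnant and non-pregnant libraries. The highest levels of most of them were in a single library, pregnant library 3. The test was limma on log2(FPKM + 1), over the 11412 genes whose mean reached 1 FPKM. It left 38 of the 43 in, with p-values adjusted by the Benjamini-Hochberg method over all genes tested. The 38 had limma adjusted p-values from 0.295 to 0.977, against a threshold of 0.05, which 10 genes of the table passed (0.0876%). At an unadjusted limma p under 0.05, 5 members were higher in pregnancy (Uhrf1, Mcm5, Fen1, Mcm2 and E2f1) and 0 were lower. The shares over all genes tested were 7.09% higher and 6.3% lower. limma-voom, run on the recovered fragments, also called 0 members, with 8 higher and 0 lower at an unadjusted p under 0.05 (7.59% and 5.4% of all genes tested).

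The direction of the 38 estimates was mostly the same. The log2 change, coded pregnant minus non-pregnant, was above 0 for 33 members, where 44.8% of all genes tested were above 0. Its median was 0.20, with a range from -0.28 to 1.06, and the median over all genes tested was -0.02. The pregnant libraries were all above the non-pregnant libraries for 12 of the 38 members (9.9% of all genes tested) and all below for 0 (12.2% of all genes tested). Ccne2 and Chaf1a entered the test only through the pregnant group, since their non-pregnant means were 0.867 and 0.937 FPKM.

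**Figure D1:**
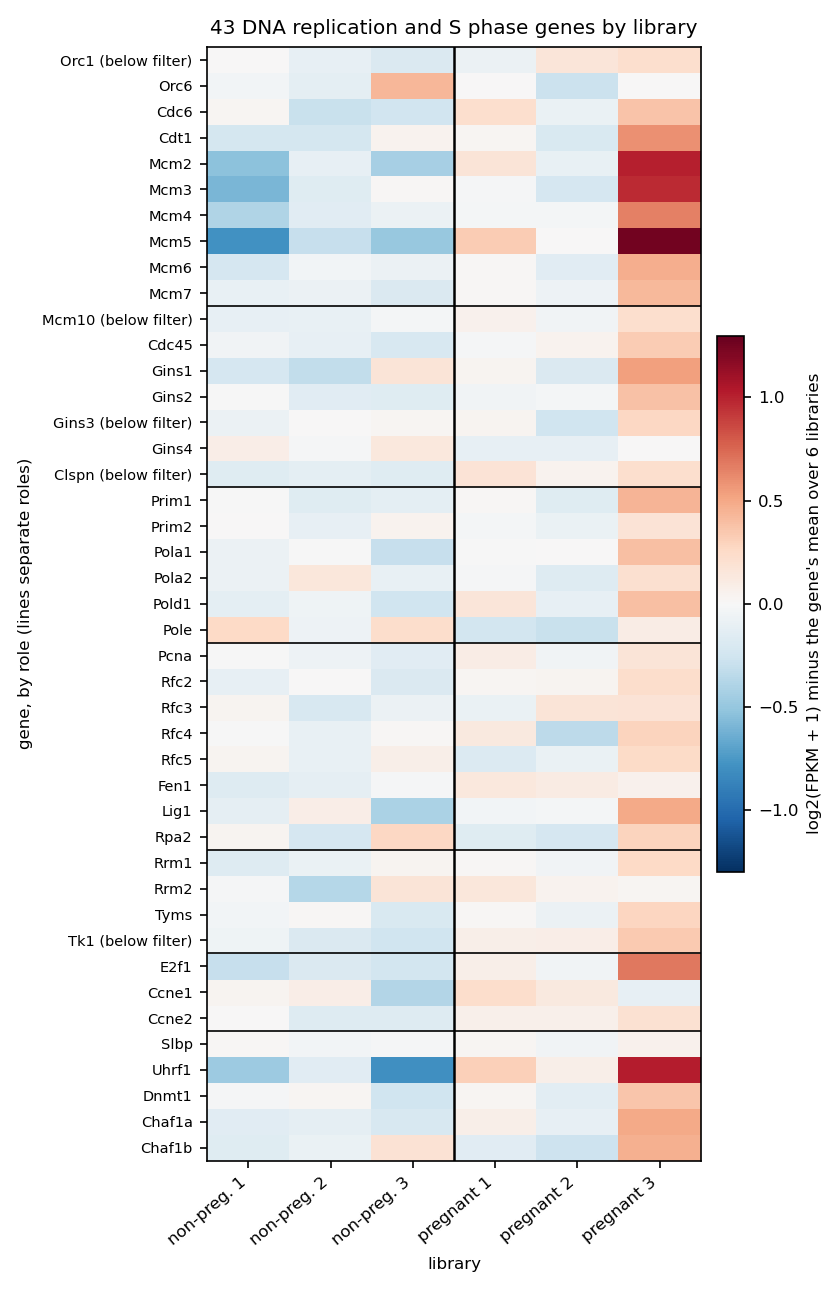
Level of each of the 43 genes (rows, by role) in each of the 6 libraries (columns), as log2(FPKM + 1) minus the mean of that gene over the 6 libraries. The pregnant library 3 column is above 0 in nearly all rows, while pregnant libraries 1 and 2 lie close to the non-pregnant columns.

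Pregnant library 3 held the highest value of the 6 libraries for 32 of the 38 tested members, where 16.9% of all genes tested were highest there. Over all 43 members the number was 37. On the log2(FPKM + 1) scale the median deviation of the members from their own means was 0.35 in pregnant library 3. It was 0.02 and -0.08 in pregnant libraries 1 and 2, and -0.06, -0.11 and -0.11 in non-pregnant libraries 1 to 3. Over all genes tested it was between -0.01 and 0.02 in every library. The summed level of the 43 members was 195, 199 and 195 FPKM in non-pregnant libraries 1 to 3, and 219, 200 and 286 FPKM in pregnant libraries 1 to 3. Pregnant library 3 was thus the one clearly high library, and pregnant library 2 was near the non-pregnant level.

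Within the pregnant group, the level in library 3 divided by the mean level of libraries 1 and 2 had a median of 1.42 over the 38 members (0.789 to 2.41), and of 0.995 over all genes tested. It was above 1.5 for 13 members, and for 1.05% of all genes tested. Ccne1, Rrm2 and Fen1 were the members that were lower in library 3 than the mean of the other pregnant libraries. The mean of pregnant libraries 1 and 2 divided by the non-pregnant mean had a median of 1.08 over the members, with 29 of 38 above 1, and of 0.98 over all genes tested. With pregnant library 3 left out of the fit, the median log2 change was 0.10 and 29 members were above 0. Both remaining pregnant libraries were then above every non-pregnant library for 13 of the 38 (13.0% of all genes tested), and below every one for 2, Gins4 and Pole (15.6% of all genes tested).

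**Figure D2:**
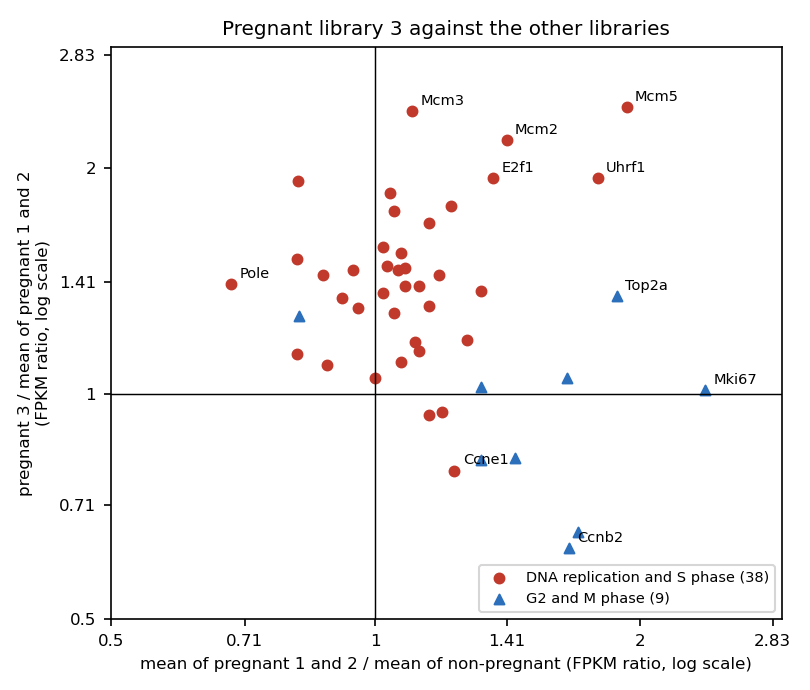
Each point is a gene, with the mean FPKM of pregnant libraries 1 and 2 over the non-pregnant mean on the x axis and pregnant library 3 over the mean of pregnant libraries 1 and 2 on the y axis (both log scales). Most of the 38 replication genes (circles) lie above 1 on the y axis with Mcm5 at 2.41, while Mki67, a G2 and M phase gene (triangles), lies near 1.

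The ring of the replicative helicase, Mcm2 to Mcm7, is part of the licensing role, whose median log2 change of 0.34 was the largest of any role. Taken alone, the ring leaves out the tested licensing genes Orc6, Cdc6 and Cdt1, so its median is not comparable with those of whole roles. The log2 changes of the 6 ring subunits ran from 0.22 to 1.06 with a median of 0.45. All 6 were highest in pregnant library 3 (16.9% of all genes tested). Pregnant libraries were above all non-pregnant ones for 4 of the 6 (9.9% of all genes tested). Non-pregnant libraries 1 to 3 had 1.42, 2.39 and 1.98 FPKM of Mcm5, and pregnant libraries 1 to 3 had 4.26, 3.19 and 8.96 FPKM. Every pregnant library was above every non-pregnant one, and pregnant library 3 was far above the other pregnant libraries. The means were 1.93 ± 0.487 and 5.47 ± 3.07 FPKM (SD, n = 3 each), a ratio of 2.84, and the limma log2 change was 1.06 ± 0.297 (SE) with an adjusted p of 0.295. Without pregnant library 3 the log2 change of Mcm5 was 0.69, with a limma adjusted p of 0.694.

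Mcm2 stood at 2.48, 3.70 and 2.74 FPKM without pregnancy and at 4.66, 3.73 and 9.17 FPKM in pregnancy. The groups did not overlap, but pregnant library 2 was only just above non-pregnant library 2. Its limma log2 change was 0.72 ± 0.267 (SE), adjusted p 0.34. Mcm3 overlapped between the groups, at 2.7, 4.02 and 4.64 FPKM against 4.53, 3.81 and 9.93 FPKM, and its log2 change was 0.49. Its value in pregnant library 3 was 2.38 times the mean of the other pregnant libraries, which lay within the non-pregnant range. Mcm4 was at 5.53, 6.74 and 7.11 FPKM against 7.40, 7.41 and 12.5 FPKM, without overlap (limma log2 change 0.41 ± 0.19 SE, adjusted p 0.394).

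Mcm6 and Mcm7 were the most abundant subunits and had the smallest estimates of the ring. Mcm6 was at 12.4, 14.2 and 13.8 FPKM against 14.8, 13.1 and 20.7 FPKM, with overlap. Mcm7 was at 11.2, 11.4 and 10.5 FPKM against 12.2, 11.5 and 16.5 FPKM. Its groups did not overlap but nearly touched (limma log2 change 0.25 ± 0.127 SE, adjusted p 0.417). The subunits, which form the ring in equal numbers, were thus unequal in RNA level. Mcm5 was the lowest and Mcm6 the highest in all 6 libraries. The ratio of Mcm6 to Mcm5 in FPKM was 8.76, 5.96 and 6.97 in the non-pregnant libraries and 3.48, 4.10 and 2.31 in the pregnant libraries, so that the subunits lay closer together in each pregnant library. That ratio was chosen after the values were seen and was given no test.

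**Figure D3:**
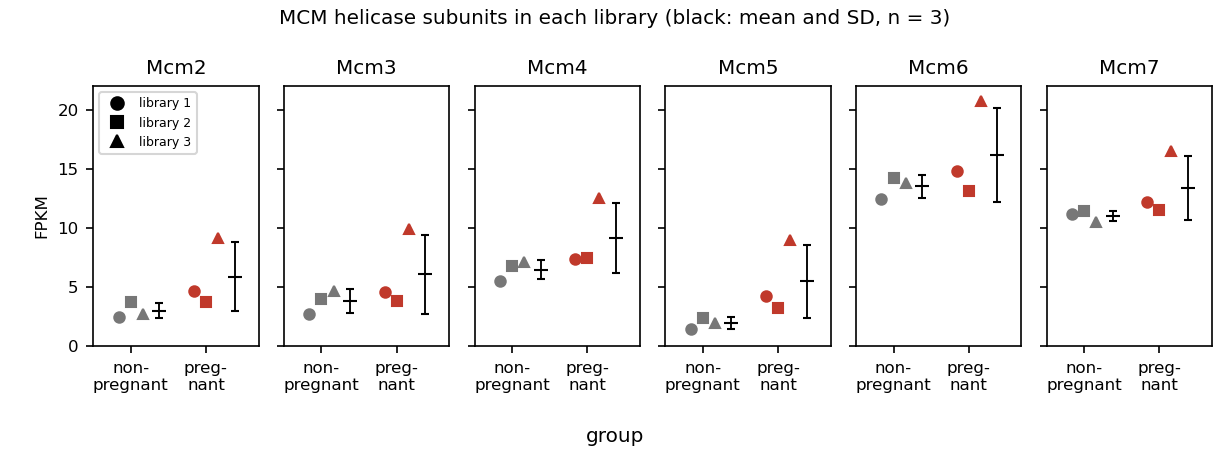
FPKM (y axis, from 0) of Mcm2 to Mcm7 in each library, non-pregnant in grey and pregnant in red, with the marker shape giving the library number and black bars the mean and SD (n = 3). In all 6 panels the red triangle, pregnant library 3, is the highest point, at 8.96 FPKM for Mcm5 and 20.7 FPKM for Mcm6.

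Of the other licensing factors, Cdc6 and Cdt1 had estimates above 0 and Orc6 an estimate below 0. Cdc6, which recruits Cdt1 and the ring to origins, was at 1.57, 1.07 and 1.13 FPKM against 1.94, 1.37 and 2.27 FPKM, and the groups overlapped through non-pregnant library 1 and pregnant library 2 (limma log2 change 0.34 ± 0.148 SE, adjusted p 0.378). Cdt1, which brings the ring to the origin, was at 3.42, 3.42 and 4.35 FPKM against 4.30, 3.52 and 6.84 FPKM. Pregnant library 3 was again the high one. Orc6, a subunit of the origin recognition complex, was at 4.30, 3.98 and 6.36 FPKM against 4.46, 3.50 and 4.48 FPKM, and was highest in non-pregnant library 3.

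Uhrf1, which recognises hemimethylated DNA behind the fork and recruits Dnmt1, had the smallest p of the tested members. It stood at 2.48, 3.37 and 1.79 FPKM in non-pregnant libraries and at 5.01, 4.09 and 8.83 FPKM in pregnant libraries. The groups did not overlap, and pregnant libraries 1 and 2 were also above every non-pregnant library. The means were 2.55 ± 0.793 and 5.98 ± 2.52 FPKM (SD, n = 3 each), a ratio of 2.35, and the limma log2 change was 0.94 ± 0.256 (SE) with an adjusted p of 0.295. Over all alternatives run, the lowest adjusted p of any tested member was 0.0768, for Uhrf1 without non-pregnant library 2.

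Promoter sequence was examined because E2F sites are a well known shared feature of such genes. RefSeq entries on GRCm38.p6, the same build as the mm10 of the files, were matched by symbol for 35 of the 43 members, and the 250 bases before each annotated start were searched on both strands. An E2F-type motif, spelled TTTCCCGC, TTTGGCGC, TTTCGCGC or TTTGCCGC, was present in 10 of the 35 members (28.6%) and in 2.2% of the 27025 genes with an entry. Those 10 were Orc1, Cdc6, Mcm5, Mcm6, Mcm7, Gins3, Pola1, Rfc3, Uhrf1 and Dnmt1. The NF-Y motif CCAAT was in 62.9% of members and 37.5% of all genes, and the Sp1 motif GGGCGG in 65.7% and 35.4%. The cell cycle homology motif TTTGAA, which is common in genes of G2 and M phase, was in 14.3% and 18.3%. The median log2 change was 0.26 for the 8 tested members with an E2F-type match (0.17 to 1.06) and 0.16 for the 22 tested members with an entry and no match (-0.18 to 0.72). These matches describe the sequence only.

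The 4 members with the smallest p are shown by their promoter sequences, 5′ to 3′ on the strand of the gene, each ending at the base before the annotated start, with capitals for E2F-type and CCAAT motifs on either strand. Mcm5, at chr8:75109259-75109508 on the plus strand, holds 2 E2F-type motifs that overlap, as TTTCGCGC and, on the other strand, TTTGGCGC, and 2 CCAAT motifs. Uhrf1 has 2 annotated starts. The window of the first, at chr17:56303087-56303336 on the plus strand, holds 1 CCAAT motif, and its last bases lie in the first exon of the gene in GENCODE. The window of the second, at chr17:56304063-56304312, lies inside the gene and holds 1 E2F-type and 2 CCAAT motifs. Mcm2, at chr6:88898781-88899030 on the minus strand, holds 1 CCAAT motif in the reverse orientation. Fen1 also has 2 annotated starts, both without a match. The window of the first, at chr19:10204394-10204643 on the minus strand, is shown for contrast and lies wholly upstream of the gene in GENCODE. The window of the second, at chr19:10203922-10204171, lies almost wholly inside the gene. The bases between these 2 windows were not searched.
Mcm5: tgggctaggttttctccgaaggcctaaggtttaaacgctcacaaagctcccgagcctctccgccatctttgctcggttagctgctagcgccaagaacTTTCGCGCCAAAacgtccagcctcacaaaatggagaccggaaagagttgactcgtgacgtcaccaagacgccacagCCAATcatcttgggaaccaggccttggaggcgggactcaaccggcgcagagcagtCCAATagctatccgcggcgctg
Uhrf1 first start: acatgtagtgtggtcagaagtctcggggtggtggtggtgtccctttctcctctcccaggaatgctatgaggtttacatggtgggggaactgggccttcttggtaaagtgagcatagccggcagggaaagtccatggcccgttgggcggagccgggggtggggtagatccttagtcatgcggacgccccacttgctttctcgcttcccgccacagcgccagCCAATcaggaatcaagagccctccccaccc
Uhrf1 second start: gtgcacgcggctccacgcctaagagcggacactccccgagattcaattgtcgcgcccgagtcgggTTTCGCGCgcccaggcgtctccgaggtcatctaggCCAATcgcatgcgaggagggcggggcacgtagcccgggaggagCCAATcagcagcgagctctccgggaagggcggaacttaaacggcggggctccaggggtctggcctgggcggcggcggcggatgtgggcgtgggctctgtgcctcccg
Mcm2: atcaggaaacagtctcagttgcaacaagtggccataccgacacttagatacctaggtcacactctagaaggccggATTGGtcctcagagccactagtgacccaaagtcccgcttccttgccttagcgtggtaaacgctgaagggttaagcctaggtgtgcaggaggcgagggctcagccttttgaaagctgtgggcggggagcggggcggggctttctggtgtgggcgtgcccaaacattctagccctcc
Fen1: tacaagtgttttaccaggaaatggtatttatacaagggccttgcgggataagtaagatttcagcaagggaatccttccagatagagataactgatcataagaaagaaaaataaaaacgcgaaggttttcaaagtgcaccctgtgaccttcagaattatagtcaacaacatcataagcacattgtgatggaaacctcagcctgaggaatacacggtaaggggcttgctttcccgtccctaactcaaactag

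The control genes of S phase entry were 3. E2f1, an activating E2F factor, was at 1.13, 1.31 and 1.22 FPKM in non-pregnant libraries and at 1.77, 1.55 and 3.22 FPKM in pregnant libraries. All pregnant libraries were above the narrow non-pregnant range. The limma log2 change was 0.48 ± 0.184 (SE), adjusted p 0.348. Ccne2, a cyclin that activates Cdk2, was at 1.02, 0.795 and 0.788 FPKM against 1.10, 1.11 and 1.3 FPKM, without overlap (limma log2 change 0.22 ± 0.106 SE, adjusted p 0.408). Ccne1, the other E-type cyclin, went against the common library pattern, at 4.77, 4.98 and 3.32 FPKM against 5.6, 5.15 and 4.24 FPKM. Pregnant library 3 was its lowest pregnant library, and the groups overlapped.

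Helicase activation and the fork gave 3 of 4 tested estimates above 0. Cdc45, which joins the Mcm ring and GINS in the active helicase, was at 1.22, 1.12 and 0.972 FPKM against 1.26, 1.36 and 1.88 FPKM, without overlap but with pregnant library 1 close to non-pregnant library 1. The 4 GINS subunits were very unequal. Gins4 was between 11.3 and 13.5 FPKM in all libraries and Gins3 between 0.526 and 1.21 FPKM, a ratio of 10.2 to 21.5 within a library. Gins4 had an estimate below 0, with a limma log2 change of -0.13 and an unadjusted 95% interval from -0.31 to 0.04. Gins1 was at 1.31, 1.16 and 2.02 FPKM against 1.76, 1.37 and 2.89 FPKM. Gins2 was at 1.79, 1.53 and 1.5 FPKM against 1.7, 1.74 and 2.64 FPKM. For Gins1 and Gins2 the groups overlapped, with pregnant library 3 the highest.

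Among polymerases and primase the main leading-strand and lagging-strand enzymes had estimates of opposite sign, and neither passed the test. Pold1, the catalytic subunit of polymerase delta, which extends the lagging strand, was at 6.62, 7.02 and 5.99 FPKM against 8.34, 6.76 and 9.91 FPKM. Its groups overlapped through pregnant library 2 (limma log2 change 0.30 ± 0.128 SE, adjusted p 0.375). Pole, the catalytic subunit of polymerase epsilon, which extends the leading strand, was at 3.99, 3.0 and 3.90 FPKM against 2.54, 2.43 and 3.48 FPKM. It was the lowest estimate of any tested member (limma log2 change -0.28 ± 0.136 SE, adjusted p 0.404), and pregnant library 3 was its highest pregnant library. Pola1, the catalytic subunit of polymerase alpha, was at 3.45, 3.69 and 2.82 FPKM against 3.70, 3.71 and 5.16 FPKM, where pregnant libraries 1 and 2 were barely above non-pregnant library 2. The primase subunits Prim1 and Prim2 and the polymerase alpha subunit Pola2 overlapped between the groups, with log2 changes of 0.19, 0.04 and 0.01.

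**Figure D4:**
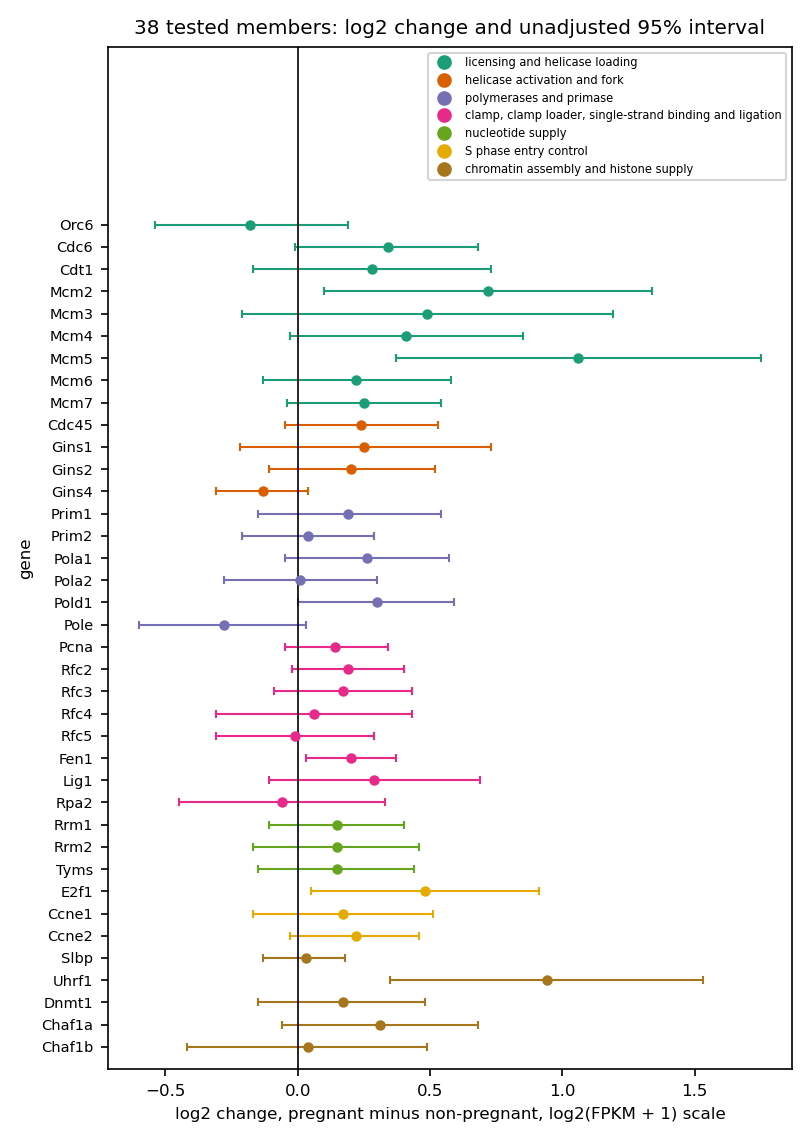
log2 change (x axis, pregnant minus non-pregnant on the log2(FPKM + 1) scale) and unadjusted limma 95% interval of each of the 38 tested members, coloured by role. Points lie to the right of 0 for 33 members, the interval of Mcm5 runs from 0.37 to 1.75, and Pole has the lowest estimate at -0.28.

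Pcna, the sliding clamp, was the most abundant member and differed little between libraries. It was at 30.7, 29.4 and 27.7 FPKM against 33.0, 29.8 and 34.7 FPKM, with overlap, and its limma 95% interval for the log2 change ran from -0.05 to 0.34. Fen1, the nuclease that trims Okazaki fragment flaps, was at 7.52, 7.86 and 8.47 FPKM against 9.58, 9.35 and 8.96 FPKM. It was the one member of the 5 at an unadjusted p under 0.05 that was lowest, within the pregnant group, in library 3 (limma log2 change 0.20 ± 0.074 SE, adjusted p 0.333). Its exons share 78.8% of their bases with the antisense gene Gm10143 on the other strand. Whether counting used strand is not given in the sources used here, so reads of the pair may not be told apart.

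The clamp loader subunits Rfc2 to Rfc5 were low. Rfc2 was at 5.47, 5.96 and 5.10 FPKM against 6.09, 6.10 and 7.12 FPKM, just without overlap (limma log2 change 0.19 ± 0.0905 SE, adjusted p 0.399). Rfc3, Rfc4 and Rfc5 overlapped, with log2 changes of 0.17, 0.06 and -0.01. Lig1, which seals Okazaki fragments, was at 11.2, 13.0 and 8.94 FPKM against 11.9, 12 and 17.5 FPKM. Rpa2, a subunit of the single-strand binding complex, was at 4.44, 3.57 and 5.37 FPKM against 3.74, 3.54 and 5.49 FPKM. Both overlapped and both were highest in pregnant library 3.

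The 3 tested genes of nucleotide supply had small estimates, and the fourth, Tk1, was below the filter and is given with the low members. Rrm1 and Rrm2 form ribonucleotide reductase, which makes deoxyribonucleotides. Rrm1 was between 2.47 and 3.67 FPKM, highest in pregnant library 3, and Rrm2 was at 3.48, 2.52 and 4.09 FPKM against 4.04, 3.68 and 3.61 FPKM. Rrm2 did not share the peak in pregnant library 3. Tyms, which makes thymidylate, was at 1.10, 1.17 and 0.877 FPKM against 1.18, 1.04 and 1.62 FPKM. All 3 had a log2 change of 0.15 with limma adjusted p-values from 0.545 to 0.622, and all overlapped.

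The remaining chromatin genes were Dnmt1, Slbp and the CAF-1 subunits. Dnmt1, the maintenance DNA methyltransferase, was at 13.2, 13.6 and 11 FPKM against 13.6, 12.1 and 17.4 FPKM, with overlap. Slbp, which binds the stem-loop of histone mRNAs, had the narrowest limma 95% interval of these, from -0.13 to 0.18, at 11, 10.6 and 10.8 FPKM against 11.1, 10.5 and 11.4 FPKM. Chaf1a was at 0.946, 0.994 and 0.872 FPKM against 1.28, 0.998 and 2.03 FPKM, and pregnant library 2 cleared non-pregnant library 2 only in the last digit. Chaf1b, its partner in CAF-1, overlapped, at 1.78, 1.93 and 2.53 FPKM against 1.81, 1.58 and 3.27 FPKM. Several members share exon bases with a gene on the other strand, the largest shares after Fen1 being 67.3% for Gins2 and 52.5% for Chaf1a.

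Below the filter of 1 FPKM were 5 members, of which Clspn and Tk1 had all pregnant libraries above all non-pregnant ones. The share over all genes below the filter was not computed. Clspn, the adaptor of the checkpoint kinase Chk1 at stalled forks, was at 0.068, 0.0966 and 0.0751 FPKM against 0.35, 0.234 and 0.39 FPKM. This was 54 fragments in the 3 non-pregnant libraries together and 190 in the pregnant ones, a depth-scaled ratio of 4.02 with a 95% counting interval of 2.96 to 5.55. Unlike most members, Clspn was nearly as high in pregnant library 1 as in pregnant library 3. Added to an unfiltered limma fit of all genes above 0, it had a log2 change of 0.29 ± 0.0469 (SE) on the log2(FPKM + 1) scale, which understates low genes, and an adjusted p of 0.181.

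Tk1, the salvage enzyme thymidine kinase, was at 0.369, 0.254 and 0.191 FPKM against 0.506, 0.517 and 0.813 FPKM. Its 130 and 260 fragments gave a ratio of 2.29 (counting interval 1.84 to 2.84), and the unfiltered limma fit an adjusted p of 0.294. Mcm10, a fork scaffold, Orc1, the largest subunit of the origin recognition complex, and Gins3 overlapped between the groups. Mcm10 was between 0.204 and 0.503 FPKM and Orc1 between 0.343 and 0.784 FPKM, and all 3 were highest in pregnant library 3. Counting intervals cover counting error only, not the spread between libraries.

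**Figure D5:**
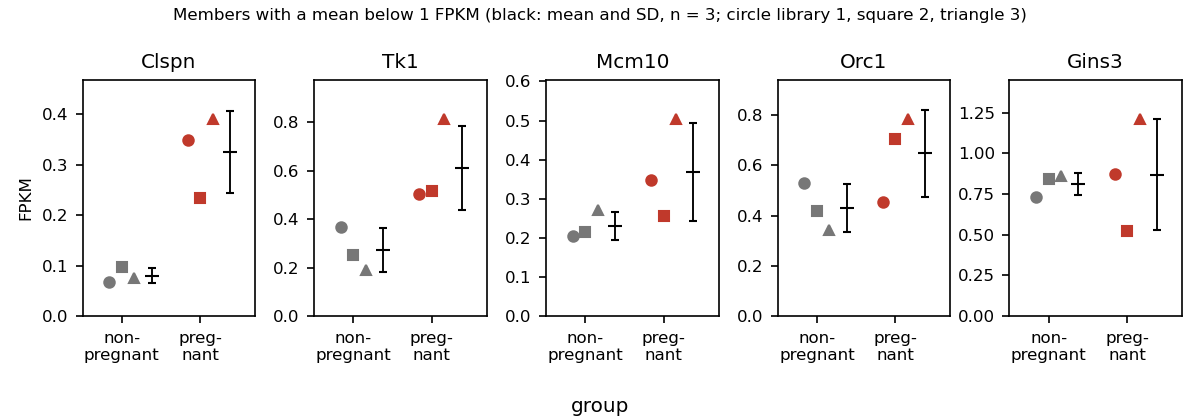
FPKM (y axes, each from 0 with its own scale) of the 5 members with a mean below 1 FPKM, non-pregnant in grey and pregnant in red, with black bars for the mean and SD (n = 3). Clspn is between 0.068 and 0.0966 FPKM in the grey points and between 0.234 and 0.39 FPKM in the red ones, and the groups overlap for Mcm10, Orc1 and Gins3.

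Other genes of DNA replication, named in 5 lists by function, were set beside the members. Of 94 such genes 74 were tested, and limma called 0. At an unadjusted limma p under 0.05, 7 were higher and 2 lower (7.09% and 6.3% of all genes tested). The median log2 change of the 74 was 0.01, with 40 above 0 (44.8% of all genes tested) and 34 below. Pregnant library 3 held the highest value of 25 of the 74 (16.9% of all genes tested). By list, the medians were -0.04 for licensing and firing, 0.03 for polymerases and flap processing, 0.02 for nucleotide supply, 0.02 for chromatin and -0.02 for E2F control. Pregnant libraries were all above for 9 of the 74 and all below for 5 (9.9% and 12.2% of all genes tested). Among the higher genes that had small p-values but did not pass the test was Dck, which phosphorylates deoxycytidine. Its levels were 2.54, 2.57 and 2.35 FPKM against 2.9, 3.42 and 3.63 FPKM (limma adjusted p 0.301). Tfdp1, the dimer partner of E2F factors, was at 8.92, 9.57 and 8.57 FPKM against 10.6, 10.1 and 11.9 FPKM (limma adjusted p 0.319). Neither Dck nor Tfdp1 overlapped between the groups. The 2 lower genes were Top2b and Rnaseh2a, with log2 changes of -0.19 and -0.22 (limma adjusted p 0.362 and 0.367). Both had all pregnant libraries below all non-pregnant ones.

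Of the 20 other replication genes below the filter, 8 had all pregnant libraries above all non-pregnant ones and 12 overlapped. The share over all genes below the filter was not computed, so the counts from these 20 cannot be read as an excess. The depth-scaled ratio was 1 or less for 3 of the 20 (Dbf4, Chtf8 and Mybl2), the lowest being 0.834, and 15 were highest in pregnant library 3. The genes named from these 20 were chosen after their values were seen. Pclaf, which binds Pcna, had 2, 2 and 4 fragments in non-pregnant libraries and 20, 17 and 35 in pregnant libraries, a ratio of 10.3 (counting interval 4.95 to 24.7). E2f8, a repressing E2F factor, had 10, 12 and 14 against 45, 28 and 50 fragments, a ratio of 3.90 (2.67 to 5.83). Ticrr, which activates licensed origins, had 22, 16 and 13 against 41, 39 and 69 fragments, a ratio of 3.34 (2.41 to 4.68). Each of the latter 3 was highest in pregnant library 3, and none overlapped between the groups. None passed the test in the unfiltered limma fit, with adjusted p-values of 0.273 for Pclaf, 0.249 for E2f8 and 0.301 for Ticrr.

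Genes of the later cell cycle were read beside them. Of 22 genes of G2 and M phase, 9 were tested and limma called 0, with a median log2 change of 0.32. At an unadjusted limma p under 0.05, 4 were higher (7.09% of all genes tested). Top2a, which is among those 4, and Ube2c had non-pregnant means under 1 FPKM and passed the filter only through the pregnant group. Pregnant library 3 was the highest for 1 of the 9 (16.9% of all genes tested), and for 4 of all 22. Mki67, the proliferation antigen, was at 1.38, 0.845 and 1.48 FPKM against 3.64, 2.23 and 2.96 FPKM, highest in pregnant library 1 and without overlap (limma log2 change 0.81 ± 0.167 SE, adjusted p 0.229). Top2a, which untangles replicated DNA, was at 0.763, 0.583 and 0.92 FPKM against 1.78, 1.06 and 1.92 FPKM, and was the one highest in pregnant library 3. Whether the S phase and the later genes differ in this order was not tested. Of the 10 tested G1 cyclins, kinases and inhibitors limma called 0. Ccnd1, which starts the path to S phase, was at 76.7, 130 and 33.0 FPKM against 153, 151 and 234 FPKM, highest in pregnant library 3 (limma log2 change 1.33 ± 0.439 SE, adjusted p 0.308).

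Summed markers of biliary cells were also higher in every pregnant library. The 10 biliary genes summed to 5019 to 6369 FPKM without pregnancy and to 6882 to 7363 FPKM in pregnancy. Pregnant libraries were all above for 6 of the 9 tested (9.9% of all genes tested), and limma called 0. Pregnant library 3 had the lowest of the pregnant sums, but the sums were mostly Spp1. Spp1 was at 5941, 5660 and 5532 FPKM in pregnant libraries 1 to 3. Of the 9 tested, 4 were highest in pregnant library 3 (Krt7, Epcam, Muc1 and Cldn7), where 16.9% of all genes tested were highest. Markers of other liver cells were read in the same libraries. The 12 Kupffer cell and macrophage genes summed to 57.4 to 90.4 FPKM without pregnancy and to 181, 154 and 110 FPKM in pregnant libraries 1 to 3. Of the 10 tested, limma called 4 higher, where 0.0876% of all genes tested were called in either direction. All 4 (Cd5l, C1qa, C1qc and Fcna) had a non-pregnant mean under 1 FPKM and so passed the filter only through the pregnant group. Their limma adjusted p with no filter was 0.111 to 0.137. Pregnant library 3, the highest for the replication genes, was the lowest of the pregnant libraries for the sum and for each of these markers but Cd68. Cd68 was highest there of all 6 libraries, at 40.5 FPKM. Cd68 and Csf1r made up most of each non-pregnant sum and had limma log2 changes of 0.03 and 0.16. The median log2 change of the 10 tested was 2.43. Of these 10, 7 had a non-pregnant mean under 1 FPKM and so passed the filter only through the pregnant group. That median describes the genes that passed, and no support is drawn from it. The 7 T and NK cell genes found summed to 0.277 to 0.315 FPKM against 0.583 to 1.13 FPKM, each below 1 FPKM in every library, with 5 of the 7 at 0 in at least 1 library. The 6 B and plasma cell genes summed to 2.44 to 3.23 against 3.67 to 4.33 FPKM. The 6 neutrophil genes summed to 0.625 to 0.973 against 1.61 to 2.18 FPKM. Elane made up most of each neutrophil sum. The other 5 were each under 1 FPKM in every library, with Ly6g at 0 in all 6 libraries. The 8 hepatocyte genes summed to 2386 to 2970 against 2359 to 2672 FPKM, and Alb made up most of each of these sums. The 7 stellate and mesothelial genes summed to 18.2 to 25.1 against 15.2 to 18.3 FPKM. The part of biliary purity or of other cells in the levels of the replication genes was not tested.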

How the data were processed

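RNA was measured in 6 libraries of sorted biliary epithelial cells, depleted of ribosomal RNA and prepared with a KAPA RNA HyperPrep kit, per the labels' protocols. The authors deposited FPKM values, 1 column per library, for 21700 genes. Tools in the submitters' processing notes, listed with no roles, are STAR 2.7.9a, HTSeq 0.13.5, DESeq2 1.30.1 and cutadapt 3.4, with the build mm10. Groups and replicate numbers came from the sample titles, although the sample descriptions number non-pregnant library 3 as 4.

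FPKM times the GENCODE vM21 exon length was a whole multiple of 1 step per library, within 0.01, for 98.5% of values above 0, which gave whole fragments. A total of 28 genes had no length there. The main test, limma 3.58.1 (trended empirical Bayes, two-sided) in R 4.3.3, used log2(FPKM + 1), a filter on the mean at 1 FPKM and Benjamini-Hochberg adjustment over 11412 genes at 0.05. limma-voom on the fragments was an alternative. Alternatives were other pseudocounts, filters, scalings and empirical Bayes settings, a replicate block, and each library left out. Python 3.11.15 and pandas 2.3.3 made the summaries. FPKM divides by all fragments, so abundant genes move the others slightly, and the median log2 change over all genes was -0.02. Counting intervals are exact 95% intervals.

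The members and lists were chosen with earlier results of these data known. By rule, the text gives levels in every library for up to 30 tested members by role and test values for the 12 of smallest p. Of each other list it could name up to 4 genes of smallest p, and Mki67, Ccnd1, Krt19 and Epcam. Spp1, Krt7, Cd68, Csf1r, Ly6g and Alb were named outside that rule, to show what the marker sums hold. Ube2c was named outside it, to show the effect of the filter. Pclaf, E2f8, Ticrr, Dbf4, Chtf8 and Mybl2, all below the filter, were also named outside it.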

Additional observations from a re-analysis of the deposited data

How the results depend on the processing

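Members called stayed at 0 under all 15 alternatives, and their median log2 change ran from 0.10 (without pregnant library 3) to 0.25 (without pregnant library 2), around 0.20. The sign was the same in every alternative for 31 of 38 members. It differed in at least 1 for Prim2, Pola2, Rfc4, Rfc5, Rpa2, Rrm2 and Chaf1b. Genes called over the whole table, 10 in the reported fit, were 0 with no filter, 5 with robust empirical Bayes and 1 with limma-voom. Leaving out 1 library gave 0 to 133 genes called, the most without non-pregnant library 2. Members whose groups did not overlap, 14 of 43, numbered 16 to 24 with 1 library left out, including 2 below without non-pregnant library 2 and 2 below without pregnant library 3. Of the 38 tested members, 12 were above with all libraries and 13 to 20 with 1 library left out. Over all genes tested the share above was then 12.7% to 19.4% and the share below 15.6% to 24.4%. The causes were not tested. Deviations of same-numbered libraries correlated at 0.068, 0.019 and -0.138, so the numbers were not taken as pairs. These are the numbers of the titles, and the sample descriptions number non-pregnant library 3 as 4, so the third correlation and the block may join unrelated samples. With a replicate block 13 genes and 0 members were called, the members' median log2 change was 0.20 and the smallest adjusted p of a member by limma was 0.357 (Mcm5). Low genes such as Clspn rest on few fragments, and 3 libraries per group limit every comparison.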
